A study of Mus musculus with 10 samples.

Results

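Heparan sulfate is a long sugar chain that is built on core proteins of the cell surface and the basement membrane. On endothelium it binds chemokines and holds them where leukocytes meet the vessel wall, and how firmly a protein binds depends on where the chain carries sulfate. The chain is extended by the exostosins, N-sulfated by the NDST enzymes, epimerized by GLCE, O-sulfated by the HS2ST, HS6ST and HS3ST enzymes, and trimmed outside the cell by the sulfatases. RNA of 10 genes of this assembly line was measured in endothelial cells of mouse lymph nodes (LN) and diaphragm. The genes were Ext1, Ext2, Ndst1, Ndst2, Glce, Hs2st1, Hs6st1, Hs6st2, Hs3st1 and Sulf1, chosen by symbol from the 23284 gene symbols of the count table. All 10 were found once each and all 10 were among the 15325 genes tested.

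All 3 populations came from C57BL/6 mice of 6 to 8 weeks, for which the labels give no treatment. LN-LEC were lymphatic endothelial cells (LEC) and LN-BEC were blood endothelial cells (BEC), both sorted from pooled inguinal, axillary, brachial, cervical and mesenteric LN, and D-LEC were the LEC of the diaphragm. LN-LEC had 4 libraries, and LN-BEC and D-LEC had 3 each, every library from cells of many mice pooled together, so the spread between libraries describes pools and not single animals. LN-LEC against D-LEC sets organs side by side within a lineage, LN-LEC against LN-BEC sets lineages side by side within an organ, and D-LEC against LN-BEC changes both. The 3 comparisons share libraries and are given side by side.

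Each library held 22429940 to 48906070 counted fragments. Of the 6 LEC markers listed, Ccl21a had 0 counts in every library, and the other 5 summed to 1184 to 1455 FPKM in LN-LEC, 3924 to 4296 in D-LEC and 23.8 to 86.9 in LN-BEC, with LN-BEC replicate 3 highest. The 6 BEC markers summed to 1319 to 1489 FPKM in LN-BEC, 20.6 to 38.4 in LN-LEC and 119 to 174 in D-LEC, where Emcn supplied 145. The 7 pericyte and smooth muscle markers were 94.1 to 117 FPKM in LN-BEC, 56.8 to 93.7 in LN-LEC and 2.80 to 5.41 in D-LEC, and most of that was Rgs5. Skeletal muscle markers summed to 18.5 to 23.6 FPKM in D-LEC, mostly Acta1 (12.3) and Tnnt3 (7.78), and to at most 1.46 in LN libraries. Of these 7 markers Ttn went the other way, at 0.271 FPKM in D-LEC, 1.19 in LN-LEC and 1.02 in LN-BEC. Mesothelial markers were 9.91 to 30.3 FPKM in D-LEC and at most 2.67 in LN libraries. Fibroblast markers summed to 58.1 to 100 FPKM in LN-LEC, 25.1 to 102 in LN-BEC and 37.4 to 103 in D-LEC. None of the 6 fibroblast markers passed edgeR's quasi-likelihood test between any 2 populations, and the lowest unadjusted p was 0.11 (Pdgfra, D-LEC against LN-BEC). With this spread within populations, the absence of a call does not show equal levels.

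The 10 enzymes did not follow a single pattern across the populations. LN-LEC had the highest 6-O-sulfotransferase RNA (Hs6st1 and Hs6st2), LN-BEC had the highest Sulf1, Ndst1 and Glce, and D-LEC had the highest Ext1 and Hs3st1. Ext2 was lower in LN-BEC than in both LEC populations, and no difference was called for Ndst2 or Hs2st1. Summed over the 10 genes, LN-LEC reached 110 ± 4.83 FPKM (mean ± SD, n = 4), LN-BEC 134 ± 8.32 (n = 3) and D-LEC 125 ± 10.1 (n = 3). FPKM here is the fragment count scaled for exon length and for library size (TMM), so that levels can be set side by side between libraries. Levels of different genes are less comparable, since they also depend on the gene models counted and on how evenly the RNA was amplified.

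**Figure D1:**
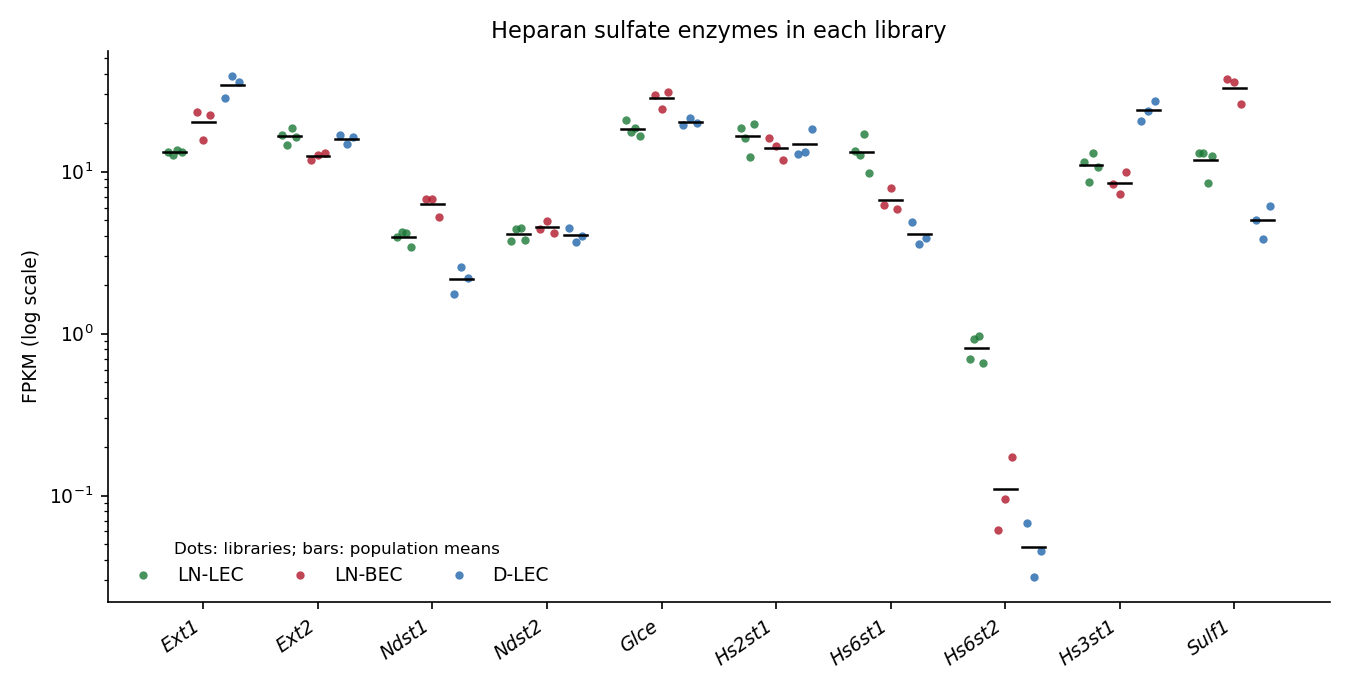
Level of each of the 10 enzymes in every library (FPKM, log scale; dots are libraries, bars are population means). Hs6st2 sits below 1 FPKM in all 10 libraries, while the other 9 genes lie between 1.76 and 39.0 FPKM.

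A gene was called when the adjusted p of edgeR's quasi-likelihood test (Benjamini-Hochberg over all tested genes) was under 0.05. Between LN-LEC and D-LEC, 6 of the 10 enzymes were called, where 45.8% of all tested genes were. LN-LEC had the higher level for 4 of them (24.1% of tested genes) and D-LEC for 2 (21.7%). Between LN-LEC and LN-BEC, 7 of 10 were called, beside 38.2% of tested genes, with LN-LEC higher for 3 (19.8%) and LN-BEC for 4 (18.4%). Between D-LEC and LN-BEC, 7 of 10 were called, beside 48.1%, with D-LEC higher for 3 (22.5%) and LN-BEC for 4 (25.6%). Libraries did not overlap between the populations for those same 6, 7 and 7 enzymes, which was the case for 49.8, 45 and 56% of tested genes. Calls at a fold of at least 2 were made for 5, 2 and 3 enzymes and for 23.3, 20.6 and 26.9% of tested genes. The median absolute log2 fold change of the 10 enzymes was 0.99, 0.62 and 0.73 in the 3 comparisons, and that of all tested genes was 0.52, 0.43 and 0.58. Ext1, Ndst1, Hs6st1 and Sulf1 were called in all 3 comparisons (16.5% of tested genes were), Ext2, Glce, Hs6st2 and Hs3st1 in 2, and Ndst2 and Hs2st1 in none (35.5% of tested genes were called in none).

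**Figure D2:**
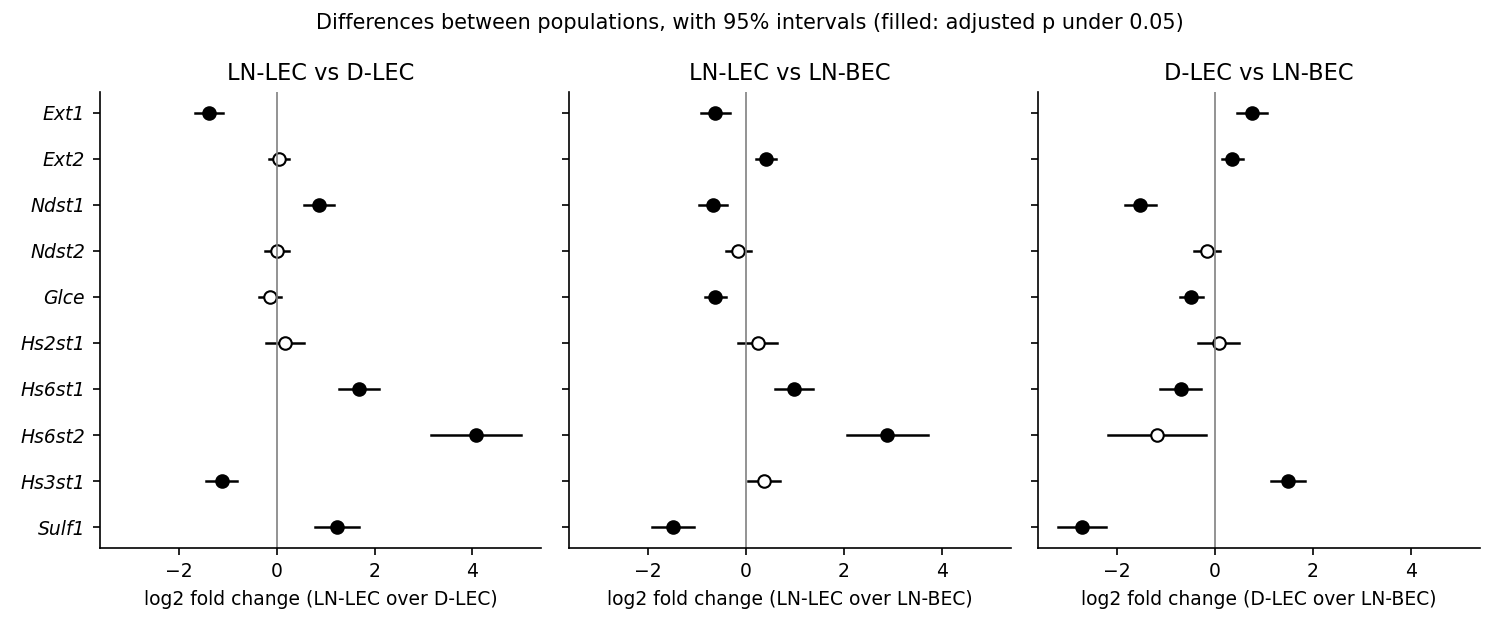
Log2 fold change of the 10 enzymes in the 3 comparisons, with 95% intervals (filled points have an adjusted p under 0.05). Hs6st2 has the largest difference in both comparisons with LN-LEC, and Sulf1 the largest between D-LEC and LN-BEC; intervals of Ndst2 and Hs2st1 include 0 in all 3.

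To show the sequence upstream of genes that moved in different directions, the 250 bases before the start site were taken from RefSeq (GRCm38.p6), and each was found unaltered in mm9. Windows were matched for 7 of the 10 genes, and those for Ext1, Ndst1 and Sulf1 were not analysed here. Shown are the 6-O pair that was highest in LN-LEC, Hs3st1 that was highest in D-LEC, and Hs2st1 for which no difference was called. Capitals mark matches, on either strand, to the GC box GGGCGG, the TATA box TATAAA, the CCAAT box, the ETS motif CCGGAAG and the E box CACGTG. In mm9 the windows are chr1:36124995-36125244 on the plus strand for Hs6st1, and chrX:49034780-49035029 for Hs6st2, chr5:40035871-40036120 for Hs3st1 and chr3:144233181-144233430 for Hs2st1, all 3 on the minus strand.
Hs6st1: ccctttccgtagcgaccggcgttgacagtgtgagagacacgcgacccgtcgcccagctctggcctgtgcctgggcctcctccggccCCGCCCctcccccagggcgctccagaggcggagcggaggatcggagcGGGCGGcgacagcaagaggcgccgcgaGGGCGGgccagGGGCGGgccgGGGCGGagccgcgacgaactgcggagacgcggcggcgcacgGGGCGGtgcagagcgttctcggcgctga
Hs6st2: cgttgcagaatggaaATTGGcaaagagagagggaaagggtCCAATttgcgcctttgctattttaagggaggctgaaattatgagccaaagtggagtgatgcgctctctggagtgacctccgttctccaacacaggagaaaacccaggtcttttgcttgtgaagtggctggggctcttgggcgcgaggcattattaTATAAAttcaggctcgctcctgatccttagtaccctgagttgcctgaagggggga
Hs3st1: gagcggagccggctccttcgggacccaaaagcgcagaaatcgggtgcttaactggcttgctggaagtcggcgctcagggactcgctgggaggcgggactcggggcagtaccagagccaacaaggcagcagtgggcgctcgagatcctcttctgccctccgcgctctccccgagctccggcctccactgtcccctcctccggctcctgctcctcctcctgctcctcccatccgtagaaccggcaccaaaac
Hs2st1: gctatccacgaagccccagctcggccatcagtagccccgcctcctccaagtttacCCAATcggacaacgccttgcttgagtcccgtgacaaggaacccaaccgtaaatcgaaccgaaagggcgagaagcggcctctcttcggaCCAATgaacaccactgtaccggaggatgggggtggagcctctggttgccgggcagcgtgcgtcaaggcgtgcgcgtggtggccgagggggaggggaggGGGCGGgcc

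The windows of the 6-O pair did not resemble each other. That of Hs6st1 held 37 CpG dinucleotides, more than 97.8% of the 32851 RefSeq windows of this length, and 6 GC boxes. That of Hs6st2 held 7 CpG, beside a median of 6 over all windows, with 1 TATA box and 2 CCAAT boxes. Hs3st1 had 19 CpG and a match to none of the 5 motifs, and Hs2st1 had 21 CpG, 1 GC box and 2 CCAAT boxes. At least 1 GC box was present in 32.7% of all windows, a TATA box in 12.4%, a CCAAT box in 33.8%, an ETS motif in 6.91% and an E box in 6.02%. RefSeq gives Hs6st2 a further start 1125 bases downstream, whose window held 26 CpG and none of the 5 motifs. Which start was used was not tested.

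EXT1 and EXT2 form the Golgi complex that adds glucuronic acid and N-acetylglucosamine in turn. Ext1 (mm9, chr15:52899818-53177738, minus strand) was 13.3, 12.7, 13.7 and 13.2 FPKM in the LN-LEC libraries, 23.3, 15.6 and 22.3 in LN-BEC, and 28.5, 39.0 and 35.8 in D-LEC. No library of any population overlapped with another population, LN-LEC lying lowest and D-LEC highest. Ext1 was 2.61-fold lower in LN-LEC than D-LEC (log2 -1.38, SE 0.13, adjusted p = 1.7e-06) and 1.54-fold lower than in LN-BEC (-0.62, SE 0.13, adjusted p = 0.0021). D-LEC exceeded LN-BEC by 1.69-fold (log2 0.76, SE 0.14, adjusted p = 0.00068). The sums of muscle markers (18.5, 23.2 and 23.6 FPKM in D-LEC replicates 1 to 3) and mesothelial markers (24.4, 9.91 and 30.3 FPKM) were also highest in D-LEC. The part of such cells in the Ext1 level was not tested.

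Ext2 (chr2:93535788-93662725, minus strand) behaved differently from its partner. It was 16.8, 14.5, 18.5 and 16.3 FPKM in LN-LEC, 16.8, 14.7 and 16.4 in D-LEC, and 11.8, 12.6 and 13.02 in LN-BEC. The LEC libraries overlapped one another and all 7 lay above the 3 LN-BEC libraries. Ext2 was 1.32-fold higher in LN-LEC than LN-BEC (log2 0.40, SE 0.10, adjusted p = 0.0038) and 1.28-fold higher in D-LEC than LN-BEC (log2 0.35, SE 0.10, adjusted p = 0.011). The LN-LEC to D-LEC difference was 0.05 on the log2 scale, with an interval from -0.15 to 0.25 (adjusted p = 0.69). Within a library the ratio of Ext1 to Ext2 was 0.804 ± 0.0564 in LN-LEC, 1.64 ± 0.370 for LN-BEC and 2.18 ± 0.474 for D-LEC. Ext2 thus exceeded Ext1 in each LN-LEC library (ratios 0.740 to 0.876) and Ext1 exceeded Ext2 in each of the other 6 (1.24 to 2.65); ratios were not tested.

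NDST1 and NDST2 replace acetyl groups of glucosamine with sulfate, the step that opens the chain to later modification. Ndst1 (chr18:60845630-60873043, minus strand) was 3.96, 4.22, 4.198 and 3.44 FPKM in LN-LEC, 6.77, 6.80 and 5.28 for LN-BEC, and 1.76, 2.57 and 2.19 for D-LEC. The populations fell into 3 separate ranges, D-LEC lowest and LN-BEC highest. Ndst1 was 2.89-fold higher in LN-BEC than D-LEC (log2 of D-LEC over LN-BEC -1.53, SE 0.15, adjusted p = 1.2e-06). LN-LEC stood between them, 1.81-fold above D-LEC (log2 0.86, SE 0.14, adjusted p = 0.0002) and 1.59-fold below LN-BEC (log2 -0.67, SE 0.13, adjusted p = 0.0011).

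Ndst2 (chr14:21542952-21553784, minus strand) was 3.71 to 4.48 FPKM in LN-LEC, 4.18 to 4.98 for LN-BEC and 3.66 to 4.52 for D-LEC. These ranges overlapped, and the adjusted p was 0.96 for LN-LEC against D-LEC, 0.33 for LN-LEC against LN-BEC and 0.3 for D-LEC against LN-BEC. The 95% intervals of its log2 fold change were -0.24 to 0.26, -0.40 to 0.10 and -0.42 to 0.11 in the same order, none of which reached the estimates for Ndst1. Within a library the ratio of Ndst1 to Ndst2 was 0.969 ± 0.0687 in LN-LEC, 1.38 ± 0.132 for LN-BEC and 0.545 ± 0.157 for D-LEC. The higher of the pair was Ndst1 in all 3 LN-BEC libraries and Ndst2 in all 3 D-LEC libraries, and the LN-LEC ratios ran from 0.911 to 1.07.

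GLCE turns glucuronic acid into iduronic acid, the more flexible sugar that later carries the 2-O-sulfate. Glce (chr9:61905056-61918413, minus strand, as counted) was 20.7, 17.7, 18.5 and 16.6 FPKM in LN-LEC, 29.7, 24.2 and 31.0 for LN-BEC, and 19.4, 21.3 and 20.0 for D-LEC. All LN-BEC libraries lay above all LEC libraries, and the LEC populations overlapped. Glce was 1.54-fold higher in LN-BEC than LN-LEC (log2 of LN-LEC over LN-BEC -0.62, SE 0.10, adjusted p = 0.00022) and 1.397-fold higher than in D-LEC (log2 of D-LEC over LN-BEC -0.48, SE 0.11, adjusted p = 0.0024). Between the LEC populations the log2 difference was -0.14, with an interval from -0.36 to 0.08 (adjusted p = 0.29). The gene model used for counting begins 52003 bases downstream of the RefSeq start, so fragments of the first exons of Glce were not in its count.

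HS2ST1 is the only 2-O-sulfotransferase acting on heparan sulfate. Hs2st1 (chr3:144094071-144233180, minus strand) was 18.5, 16.04, 12.4 and 19.5 FPKM in LN-LEC, 16.1, 14.4 and 11.7 for LN-BEC, and 12.8, 13.2 and 18.4 for D-LEC. It varied within each population by as much as between them. The adjusted p was 0.47, 0.32 and 0.77 for LN-LEC against D-LEC, LN-LEC against LN-BEC and D-LEC against LN-BEC. The intervals of the log2 fold change were -0.22 to 0.56, -0.15 to 0.63 and -0.34 to 0.49, so that log2 differences up to those limits stayed within the error of these libraries.

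The 6-O-sulfotransferases separated LN-LEC from the other populations. Hs6st1 (chr1:36125245-36163291, plus strand) was 13.4, 12.7, 17.0 and 9.83 FPKM in LN-LEC, 6.21, 7.90 and 5.87 for LN-BEC, and 4.88, 3.58 and 3.87 for D-LEC. The 3 populations did not overlap, LN-LEC highest and D-LEC lowest. Hs6st1 was 3.22-fold higher in LN-LEC than D-LEC (log2 1.69, SE 0.19, adjusted p = 1.1e-05) and 1.99-fold higher than in LN-BEC (log2 0.99, SE 0.18, adjusted p = 0.00074). D-LEC were 1.62-fold below LN-BEC (log2 -0.70, SE 0.19, adjusted p = 0.0097).

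Hs6st2 (chrX:48740389-49034779, minus strand), the other member of this pair, was the scarcest of the 10 genes in every population. Its counts were 68, 92, 108 and 133 fragments in LN-LEC, 9, 14 and 21 for LN-BEC, and 7, 4 and 7 for D-LEC. In FPKM these were 0.695, 0.921, 0.967 and 0.661 in LN-LEC, 0.0614, 0.0949 and 0.172 for LN-BEC, and 0.0680, 0.0315 and 0.0452 for D-LEC. LN-LEC lay above both other populations without overlap, and LN-BEC and D-LEC overlapped at their edges. The difference was 16.8-fold between LN-LEC and D-LEC (log2 4.07, SE 0.43, adjusted p = 3.5e-06) and 7.43-fold between LN-LEC and LN-BEC (log2 2.89, SE 0.39, adjusted p = 3.5e-05). It was the only enzyme of the 10 past 5-fold in either of these comparisons, a size reached with a call by 12.2% and 9.84% of all tested genes.

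D-LEC and LN-BEC both had few Hs6st2 fragments, and their difference sat at the threshold (log2 -1.18, interval -2.18 to -0.18, adjusted p = 0.051). It passed with upper-quartile scaling (adjusted p = 0.048) and with DESeq2 (0.049), and without LN-BEC replicate 1 (0.022) or D-LEC replicate 1 (0.039). LN-BEC carried 7.57, 11.7 and 21.2% of the mean LN-LEC level of Hs6st2 in replicates 1 to 3. The LEC markers of the same LN-BEC libraries stood at 2.75, 1.80 and 6.58% of their LN-LEC sum. Both were highest in replicate 3, but replicates 1 and 2 ranked in opposite orders. Most of that sum was Lyve1 (790 FPKM in LN-LEC and 21.8 in LN-BEC) and Pdpn (361 and 11.8). In the same order, Flt4 was 94.0 and 13.3 FPKM, Prox1 66.3 and 1.81, and Reln 8.77 and 0.219. Whether LEC RNA in the LN-BEC libraries added to the Hs6st2 count was not tested. In bulk RNA, fewer cells with a transcript and less of it in each cell cannot be told apart. Even where it was highest, Hs6st2 made up 5.84 ± 0.83% of the FPKM of the pair in LN-LEC, beside 1.67 ± 1.03% for LN-BEC and 1.13 ± 0.252% for D-LEC.

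HS3ST1 adds the rare 3-O-sulfate and is best known for making the site that binds antithrombin. Hs3st1 (chr5:40005174-40035870, minus strand) was 11.5, 8.58, 13.1 and 10.7 FPKM in LN-LEC, 8.35, 7.26 and 9.91 for LN-BEC, and 20.5, 23.7 and 27.3 for D-LEC. The 3 D-LEC libraries stood above all 7 LN libraries, and the LN populations overlapped. Hs3st1 was 2.18-fold higher in D-LEC than LN-LEC (log2 of LN-LEC over D-LEC -1.12, SE 0.15, adjusted p = 2.9e-05) and 2.81-fold higher than in LN-BEC (log2 1.49, SE 0.16, adjusted p = 4.2e-06). Between the LN populations the log2 fold change was 0.37 (interval 0.04 to 0.70, adjusted p = 0.076). That difference was called without LN-LEC replicate 2 (log2 0.47, adjusted p = 0.024), without LN-BEC replicate 3 (0.48, 0.035) and without LN-BEC replicate 3 and LN-LEC replicate 4 together (0.51, 0.04). Set against Hs6st1 within a library, Hs3st1 was 0.847 ± 0.177 in LN-LEC, 1.32 ± 0.385 for LN-BEC and 5.96 ± 1.54 for D-LEC, where all 3 ratios (4.197 to 7.05) lay above those of the LN libraries. Summed mesothelial and muscle markers were higher in D-LEC as well, at 24.4, 9.91 and 30.3 FPKM and 18.5, 23.2 and 23.6 FPKM in replicates 1 to 3. The part of such cells in the Hs3st1 level was not tested.

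SULF1 is secreted to the cell surface, where it removes 6-O-sulfate from finished chains. Sulf1 (chr1:12682511-12850453, plus strand) was 12.96, 13.02, 8.53 and 12.5 FPKM in LN-LEC, 37.2, 35.6 and 26.0 for LN-BEC, and 5.01, 3.84 and 6.17 for D-LEC. LN-BEC lay highest and D-LEC lowest, with no overlap between any 2 populations, and LN-LEC replicate 3 was the lowest of its group. Sulf1 was 6.57-fold higher in LN-BEC than D-LEC (log2 of D-LEC over LN-BEC -2.72, SE 0.22, adjusted p = 1.5e-06), the one difference of at least 5-fold among the 10 enzymes in that comparison, beside 15.2% of tested genes. LN-LEC were 2.80-fold below LN-BEC (log2 -1.49, SE 0.19, adjusted p = 8.7e-05) and 2.35-fold above D-LEC (log2 1.23, SE 0.20, adjusted p = 0.00047). Against the BEC, LN-LEC held 39.4, 39.5, 25.9 and 38.0% of the mean LN-BEC level of Sulf1. BEC markers in those libraries were 1.49 to 2.78% of their LN-BEC sum. High endothelial venule markers were 2.34 to 3.45% of theirs. That sum was almost all Glycam1, at 3939 FPKM in LN-LEC and 130124 in LN-BEC. Of the same list, Gcnt1 was 77.4 FPKM in LN-LEC and 256 in LN-BEC. Chst4 was 0.611 FPKM in LN-LEC and 68.1 in LN-BEC, and Fut7 was 0.980 and 86.1. The part of BEC RNA in the Sulf1 level of LN-LEC was not tested.

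The summed pericyte and smooth muscle markers followed the order of Sulf1 and Ndst1, highest in LN-BEC and lowest in D-LEC. Of these 7 markers, 7 were higher in LN-BEC than D-LEC (25.6% of tested genes were), 5 higher in LN-BEC than LN-LEC (18.4%, Rgs5 and Des not called) and 6 higher in LN-LEC than D-LEC (24.1%, Cspg4 not called at 0.0126 and 0.0146 FPKM). Of the 8 leukocyte markers 5 were higher in LN-BEC than in each LEC population (18.4% of tested genes were against LN-LEC and 25.6% against D-LEC). The 8 summed to 9.82 to 16.3 FPKM in LN-BEC, 4.68 to 6.19 in LN-LEC and 2.64 to 5.64 in D-LEC. Most of the LEC sums was Lyz2, at 3.94 FPKM in LN-LEC and 3.67 in D-LEC, beside 2.65 in LN-BEC. Mast cell markers, nearly all Kit, took Sulf1's order (30.8 to 34.8 FPKM in LN-BEC, 3.53 to 4.85 in LN-LEC, 1.37 to 1.96 in D-LEC). Summed megakaryocyte and platelet markers did so too, mostly Pf4 (87.0 FPKM in LN-BEC, 49.6 in LN-LEC, 4.23 in D-LEC). Of that list, Ppbp, Gp9, Gp1bb and Gp6 were instead highest in D-LEC. The part of pericytes, smooth muscle cells, leukocytes, mast cells and platelets in the Sulf1 and Ndst1 levels was not tested.

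Hs6st1, Hs6st2 and Sulf1 act on the same position of the chain, and their balance differed between populations. Within a library, Sulf1 over the sum of Hs6st1 and Hs6st2 was 0.918, 0.952, 0.476 and 1.19 in LN-LEC, 5.93, 4.46 and 4.30 for LN-BEC, and 1.01, 1.06 and 1.58 for D-LEC. Every LN-BEC ratio lay above every LEC ratio, and the ranges of the LEC populations overlapped. The similar LEC ratios rested on different levels, since in LN-LEC both sides of the ratio exceeded those of D-LEC. These are ratios of RNA and were not tested.

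**Figure D3:**
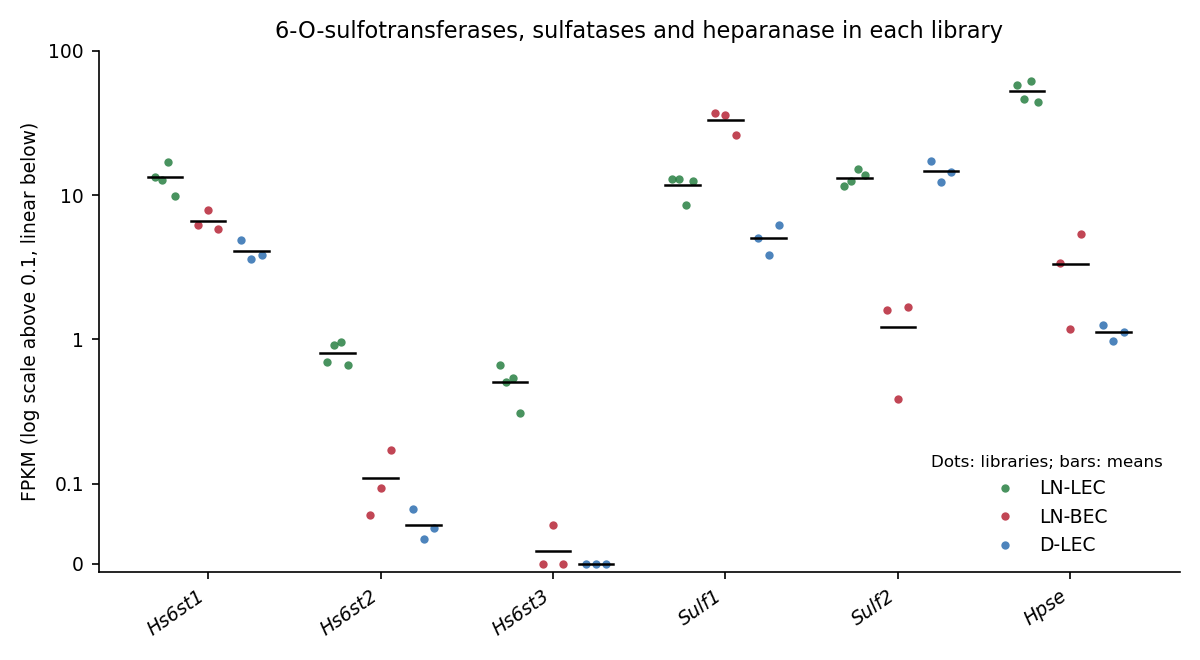
Levels of the 6-O-sulfotransferases, the sulfatases and heparanase in every library (FPKM, log scale above 0.1 and linear below; dots are libraries, bars are means). Sulf1 is highest in the 3 LN-BEC libraries (26.0 to 37.2 FPKM), where Sulf2 is lowest (0.387 to 1.68), and Hpse is highest in the 4 LN-LEC libraries (44.0 to 62.1).

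Ranked by mean FPKM, the most abundant of the 10 enzymes was Glce in LN-LEC (18.4), Sulf1 in LN-BEC (32.9) and Ext1 in D-LEC (34.5). The rank of Glce rests on a gene model without its first exons. In LN-LEC the first 7 genes, from Glce to Hs3st1 (10.96), overlapped with their neighbours in this order, and clear steps came after Hs3st1 and before Hs6st2. In LN-BEC, Sulf1 and Glce (28.3) overlapped with each other and lay above Ext1 (20.4). In D-LEC, Ext1 stood apart from Hs3st1 (23.8), which overlapped with Glce (20.3). Ndst2, Ndst1 and Hs6st2 took the last 3 places in each population, with Ndst1 ahead of Ndst2 in LN-BEC only, where their libraries did not overlap.

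Of 12 other polymerization and sulfation genes, 11 were tested (Hs3st2 had 0 counts). Of these, 8, 7 and 9 were called in LN-LEC against D-LEC, LN-LEC against LN-BEC and D-LEC against LN-BEC, beside 45.8, 38.2 and 48.1% of all tested genes. Here LN-LEC exceeded D-LEC for 8 and fell below for none, with a median log2 fold change of 5.63 beside 0.03 over all genes. Against D-LEC, 8 were higher in LN-BEC and 1 higher in D-LEC. Between the LN populations 4 were higher in LN-LEC and 3 in LN-BEC. Extl1, an exostosin-like gene, was 13.9, 12.3, 10.97 and 9.47 FPKM in LN-LEC, 8.95, 10.7 and 8.50 for LN-BEC, and 0.0911, 0 and 0.0672 for D-LEC. It was 222-fold higher in LN-LEC (log2 7.80, SE 0.38, adjusted p = 3.2e-08) and 179-fold higher in LN-BEC (log2 of D-LEC over LN-BEC -7.49, SE 0.39, adjusted p = 4.1e-08) than in D-LEC, while the LN populations differed by 0.31 (adjusted p = 0.3).

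A further N-sulfotransferase marked LN-BEC. Ndst3 was 8.41, 8.46 and 5.25 FPKM in LN-BEC, 0.0643 to 0.0903 in LN-LEC, and 0, 0.00631 and 0 in D-LEC, where the 3 libraries held 1 fragment in all. Its mean LN-BEC level (7.37 FPKM) was above those of Ndst1 (6.28) and Ndst2 (4.54) there. In replicate 3, however, Ndst3 (5.254) lay just below Ndst1 (5.279). Ndst3 was 95.3-fold higher in LN-BEC than LN-LEC (log2 of LN-LEC over LN-BEC -6.57, SE 0.23, adjusted p = 1.4e-10). Ndst4 had 4 to 7 fragments in LN-BEC libraries and 0 in all others, at least 1.49-fold above LN-LEC and 1.59-fold above D-LEC when the floor is 3 counts per library. Hs3st5, another 3-O-sulfotransferase, was 1.34 ± 0.23 FPKM in LN-LEC and 0.0491 ± 0.037 in LN-BEC and had 0 counts in D-LEC, at least 40.3-fold lower by the same floor. Ndst3 and Ndst4 share 120 near-identical exon bases, and no exon base of the 10 enzymes had a copy elsewhere of 95% identity over 100 bases.

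Close relatives of Hs3st1 and Hs6st1 that the selection rule did not name were chosen after their values were seen. Hs3st3b1 was 61.0 FPKM in LN-LEC, 56.3 for LN-BEC and 1.23 for D-LEC, and Hs3st3a1 was 8.96, 0.817 and 0.0977. Unlike Hs3st1, these 3-O-sulfotransferases were lowest in D-LEC (adjusted p for LN-LEC against D-LEC 2.6e-09 and 1.1e-11). They share near-identical exon bases with each other (10.2% of Hs3st3b1 and 15.5% of Hs3st3a1). The authors' counting leaves out fragments with several locations, and how many were lost in these stretches was not tested. Hs6st3, the third 6-O-sulfotransferase, had 21 to 27 fragments in LN-LEC, 0 to 3 for LN-BEC and 0 for D-LEC, so D-LEC were at least 8.73-fold below LN-LEC.

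Extracellular editing differed by gene. Sulf2, which removes the same sulfate as Sulf1, was 11.5, 12.5, 15.1 and 13.9 FPKM in LN-LEC, 17.3, 12.2 and 14.4 in D-LEC, and 1.61, 0.387 and 1.68 in LN-BEC. The 3 LN-BEC libraries lay below all 7 LEC libraries. Sulf2 was 10.9-fold above LN-BEC in LN-LEC (log2 3.44, SE 0.43, adjusted p = 0.00026) and 12.01-fold above it in D-LEC (log2 3.59, SE 0.45, adjusted p = 0.0002). Within a library Sulf1 over Sulf2 was 0.566 to 1.13 in LN-LEC, 0.290 to 0.429 in D-LEC and 15.4 to 92.1 in LN-BEC. Hpse, heparanase, which cuts the chain, was 58.3, 46.6, 62.1 and 44.0 FPKM in LN-LEC, 3.39, 1.19 and 5.39 for LN-BEC, and 1.26, 0.973 and 1.13 for D-LEC. LN-LEC exceeded D-LEC by 47.2-fold (log2 5.56, SE 0.52, adjusted p = 4e-05) and LN-BEC by 15.96-fold (log2 4.00, SE 0.46, adjusted p = 0.00019). In LN-BEC replicates 1 to 3, Sulf2 stood at 12.1, 2.92 and 12.7% and Hpse at 6.43, 2.25 and 10.2% of the LN-LEC mean. LEC markers stood at 2.75, 1.80 and 6.58%. Summed fibroblast markers were 102, 25.1 and 91.1 FPKM in these libraries, and all of these values were lowest in replicate 2. Leukocyte markers were highest there, at 16.3 FPKM. The part of LEC or fibroblast RNA in the Sulf2 and Hpse levels was not tested. The third gene of this list, Hpse2, had 0 to 7 fragments and was called in no comparison.

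Sulfation needs a donor, PAPS, made by PAPSS1 and PAPSS2 from sulfate that SLC26A2 imports. Papss2 was 16.7, 16.4, 16.2 and 17.7 FPKM in LN-LEC, 67.1, 61.3 and 55.9 for LN-BEC, and 0.164, 0.710 and 0.452 for D-LEC. Its order matched that of Sulf1 and Ndst1, with differences of 36.9-fold between LN-LEC and D-LEC (log2 5.21, SE 0.31, adjusted p = 3.9e-07) and 3.66-fold between LN-BEC and LN-LEC (log2 of LN-LEC over LN-BEC -1.87, SE 0.23, adjusted p = 9.4e-05). Slc26a2 took the same order at 1.81 FPKM in LN-BEC, 0.908 in LN-LEC and 0.252 in D-LEC (log2 of D-LEC over LN-BEC -2.83, adjusted p = 5.5e-07). Uxs1, which makes UDP-xylose for the linker to the core protein, was 18.6 FPKM in LN-LEC, 3.00 for LN-BEC and 2.68 for D-LEC, but 40.4% of its exon bases have a near-identical copy elsewhere in the genome. Of the 7 donor and sugar supply genes 6 were called between LN-LEC and D-LEC, 4 of them higher in LN-LEC, 4 between LN-LEC and LN-BEC (2 each way), and 3 between D-LEC and LN-BEC (1 higher in D-LEC), beside 45.8, 38.2 and 48.1% of all tested genes.

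**Figure D4:**
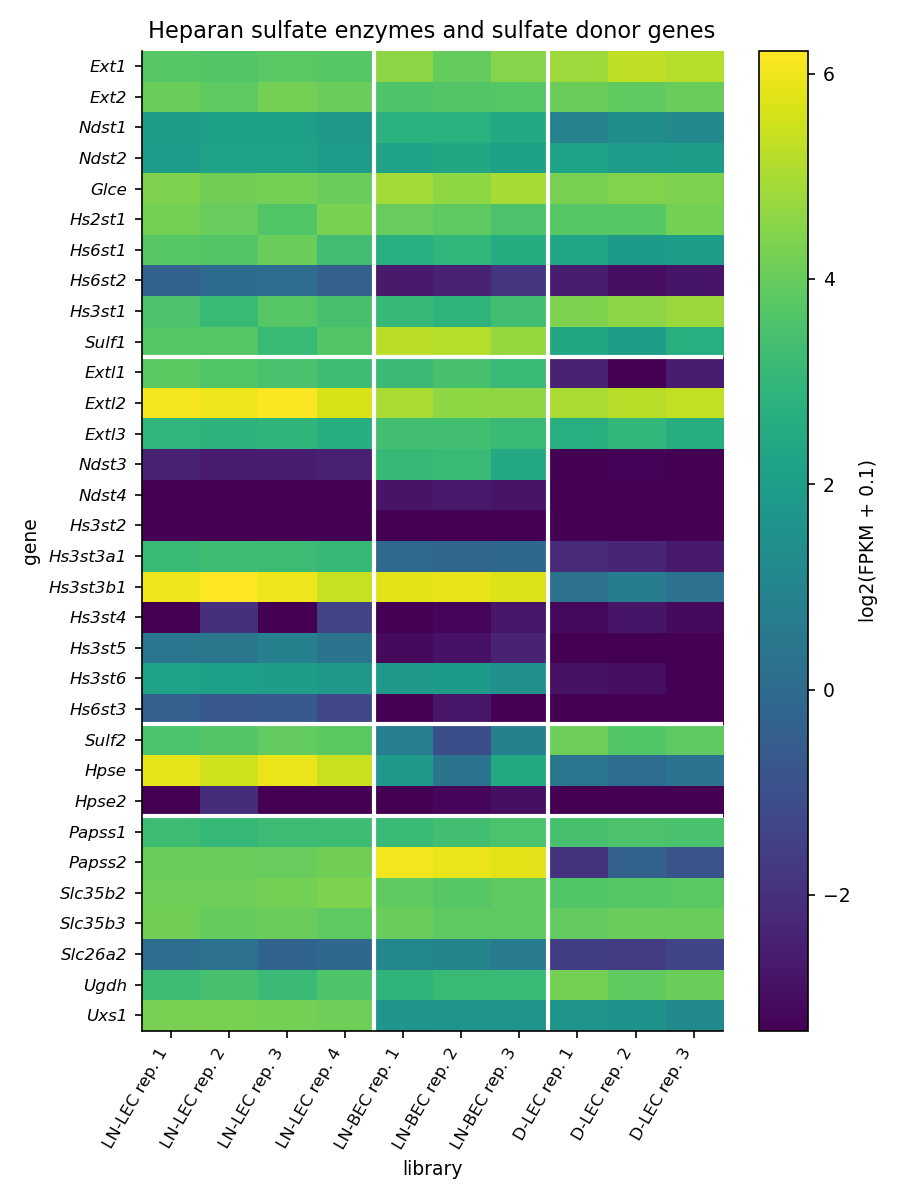
Log2(FPKM + 0.1) of the 10 enzymes (top block) and, below, of other polymerization and sulfation genes, other editing genes, and sulfate donor and sugar supply genes in the 10 libraries. Extl1, Hs3st3b1 and Papss2 are darker in the D-LEC columns than in all LN columns, and Ndst3 is bright in LN-BEC columns only (5.25 to 8.46 FPKM).

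Of 6 linkage and priming genes, which start the chain, 2 were called in each comparison, beside 45.8, 38.2 and 48.1% of all tested genes. Xylt1, which adds the first xylose, was 1.05 ± 0.17 FPKM in LN-LEC, 0.786 ± 0.20 for LN-BEC and 0.117 ± 0.055 for D-LEC, 8.61-fold higher in LN-LEC than D-LEC (log2 3.11, adjusted p = 8.6e-06). Xylt2, its paralog, was 1.81-fold higher in LN-BEC than LN-LEC (4.96 and 2.73 FPKM, adjusted p = 0.00016). B3galt6, a linker galactosyltransferase, was 1.25-fold above D-LEC in LN-LEC (adjusted p = 0.034) and 1.25-fold above LN-BEC (adjusted p = 0.043).

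Of 14 listed core proteins, which carry the chains, 13 were tested (Gpc5 had too few counts). Between LN-LEC and D-LEC, 6 favoured the first and 4 the second (24.1 and 21.7% of all tested genes did). Between LN-LEC and LN-BEC the split was 6 to 3 (19.8 and 18.4%), and between D-LEC and LN-BEC it was 4 to 5 (22.5 and 25.6%). Gpc1, a lipid-anchored glypican, was 48.6 to 67.2 FPKM in LN-LEC, 17.3 to 19.9 for LN-BEC and 0.617 to 0.739 for D-LEC (LN-LEC over D-LEC log2 6.44, SE 0.16, adjusted p = 4.5e-12). Sdc1, a membrane-spanning syndecan, was 90.04, 99.0 and 103 FPKM in D-LEC, 10.9 to 18.4 in LN-LEC and 2.87 to 4.42 in LN-BEC (D-LEC over LN-BEC log2 4.82, SE 0.23, adjusted p = 1.6e-08), with 44.2% of its exon bases having a near-identical copy elsewhere. Col18a1, a basement membrane collagen with heparan sulfate, was 6.26-fold higher in D-LEC than LN-LEC (44.2 and 7.04 FPKM, adjusted p = 2.2e-09). Gpc4, another glypican, was 6.84-fold higher in LN-BEC than LN-LEC (8.68 and 1.26 FPKM, adjusted p = 9e-08).

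For each enzyme with a called difference of at least 2-fold, the tested genes with the most similar profile were sought by the root mean square difference of log2(FPKM + 0.1), centred on each gene's mean over the 10 libraries. The closest were Pgm2l1 (0.129) and Aldh2 (0.159) for Ext1, and Stard4 (0.0984) and Elf1 (0.113) for Ndst1. For Hs6st1 they were Zfp947 (0.152) and Apobec3 (0.162), and for Hs6st2 Ppfia4 (0.179) and Hvcn1 (0.189). Wdr73 (0.141) and Cdnf (0.162) were closest to Hs3st1, and Spn (0.192) and Tnfrsf1b (0.218) to Sulf1. Stard4, which carries sterols, was for example 27.0 FPKM in LN-LEC, 44.8 for LN-BEC and 14.98 for D-LEC, the same order as Ndst1. Spn was scarce, at 0.112 FPKM in LN-LEC, 0.534 for LN-BEC and 0.0047 for D-LEC. With levels this near the 0.1 added before the log, its likeness to Sulf1 depends on that addition.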

How the data were processed

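CD45-bearing cells were removed, CD31+ cells were split by PDPN in a sorter, and their RNA was amplified (Ovation RNA-Seq V2) and sequenced as read pairs. The authors trimmed with Fastx-trimmer, used STAR for alignment to mm9 and obtained exon fragments per gene symbol from featureCounts 1.4.4. Strand was ignored and fragments with several locations were not counted. The deposited values are raw counts with no normalization, beside a column of exon length.

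Here 3826 unnamed symbols (predicted genes, clones) were left out, and a gene was tested if at least 1 population had a mean normalized count of 1 or more. Counts of all 10 libraries were fitted in edgeR 4.0.16 (R 4.3.3) with TMM factors, 1 mean per population and a robust quasi-likelihood fit. Adjusted p-values are by Benjamini-Hochberg over the genes of a comparison. SE is the size of the log2 fold change over the square root of F, and intervals are at 95%. FPKM was computed from counts, TMM library sizes and exon length. The fit was tested on simulated data. DESeq2 1.42.0, other scalings and filters, and leaving out libraries were alternatives. Near-identical copies were sought with blastn 2.17.0.

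Libraries held a median of 33067956.5 counted fragments. The labels give groups but no batch or pairing, and the p-values weigh differences between populations against the spread between these pools. The 10 enzymes and the gene lists were chosen with earlier results of these data known. From each list and comparison the text names the 2 called genes with the largest log2 fold change whose libraries do not overlap, and for each enzyme called at 2-fold the 2 genes most alike over the libraries (pseudocount 0.1). A gene that this rule names in the lysosomal list is not reported here.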

Additional observations from a re-analysis of the deposited data

Results flagged for a closer look

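Sulf1 in LN-LEC had 1 library far from the others. Replicate 3 was 8.53 FPKM and the other 3 were 12.5 to 13.02, so that the gap took 0.889 of the range of the group, above Dixon's 95% critical value for 4 samples. The check was run on LN-LEC only, for 10 genes, and chance marks about 1 group in 20. Libraries of LN-BEC and D-LEC were not checked in this way. Without replicate 3, the log2 fold change of Sulf1 was 1.36 against D-LEC (edgeR, adjusted p = 7.7e-05) and -1.36 against LN-BEC (adjusted p = 7.4e-05).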

How the results depend on the processing

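Of 30 enzyme differences, 25 kept their direction and their side of the threshold under all 19 alternatives, and none of those called was lost, except that Hs6st2 could not be tested with a minimum of 1 FPKM. The number of enzymes called was 5 to 6 for LN-LEC against D-LEC, 6 to 8 for LN-LEC against LN-BEC and 7 to 8 for D-LEC against LN-BEC. Differences that changed sign were near 0 and uncalled throughout. Ndst2 between LN-LEC and D-LEC was -0.0022 with DESeq2 size factors, -0.0023 with DESeq2's test, -0.0015 with unnamed symbols kept and -0.0054 with only these populations fitted, and -0.066 to 0.0903 on leaving out 1 library. Ext2 between LN-LEC and D-LEC ran from -0.0088 to 0.11, and Hs2st1 between D-LEC and LN-BEC from -0.12 to 0.18, on leaving out 1 library, and Hs2st1 was -0.0196 without LN-BEC replicate 3 and LN-LEC replicate 4 together. The cause was not tested. Hs3st1 between the LN populations and Hs6st2 between D-LEC and LN-BEC passed the threshold under 3 and 4 alternatives. No paired analysis was possible because the labels give no replicate numbers that libraries of different populations could share. Hs6st2 in LN-BEC and D-LEC rests on 4 to 21 fragments a library, which limits its precision.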

Other observations

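Chondroitin and dermatan sulfate are built on the same linker as heparan sulfate by other enzymes. Of 16 such genes, 11 were called between LN-LEC and D-LEC (6 higher in LN-LEC), 7 between LN-LEC and LN-BEC (3 higher in LN-LEC) and 10 between D-LEC and LN-BEC (5 higher in D-LEC), beside 45.8, 38.2 and 48.1% of all tested genes. Dse, the epimerase that makes dermatan sulfate, was 8.65 ± 0.95 FPKM in LN-LEC, 0.802 ± 0.35 for LN-BEC and 2.91 ± 0.70 for D-LEC, 10.9-fold higher in LN-LEC than LN-BEC (edgeR, log2 3.45, adjusted p = 1e-06). Chst7, a 6-O-sulfotransferase for chondroitin, was 12.2 FPKM in LN-LEC, 8.38 for LN-BEC and 1.64 for D-LEC, 7.49-fold higher in LN-LEC than D-LEC (adjusted p = 5.2e-09). Ust, an uronyl 2-sulfotransferase, was 6.93-fold higher in LN-LEC than D-LEC at a low level (0.377 and 0.0527 FPKM, adjusted p = 0.00081). Chst3, which adds the same sulfate as Chst7, was 0.281 FPKM in LN-BEC and rested on 24 to 78 fragments there, against 0 to 10 elsewhere.

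Of 8 lysosomal genes that break heparan sulfate down, there were 6 calls between LN-LEC and D-LEC (4 higher in LN-LEC), 3 between LN-LEC and LN-BEC (2 higher in LN-LEC) and 6 between D-LEC and LN-BEC (3 higher in D-LEC), beside the same 45.8, 38.2 and 48.1%. Gusb, beta-glucuronidase, was 16.5 FPKM in LN-LEC, 16.2 for LN-BEC and 6.69 for D-LEC (LN-LEC over D-LEC 2.47-fold, adjusted p = 3.2e-07). Naglu was 1.58-fold higher in LN-LEC than D-LEC (adjusted p = 0.00062), Hgsnat 1.28-fold higher in LN-LEC than LN-BEC (adjusted p = 0.016), and Arsg 2.13-fold higher in D-LEC than LN-BEC (adjusted p = 0.0015).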
